A study of Rattus norvegicus with 6 samples.

Results

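Vsnl1 and Arsi are 2 genes that were picked because nearly all of their signal was gone from rat aortic smooth muscle cells under fluid shear stress. They were read through every probe set that the platform annotation pairs with exactly 1 of the 2 symbols, which gave 3 probe sets (2 for Vsnl1, 1 for Arsi) of 31042 that are not controls, or 2 genes of 14217 named on the array. The same shear against static contrast that chose them is described here, so their differences are given as values, with no test. All 3 probe sets passed the filter on low signals.

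Vsnl1 encodes visinin-like protein 1 (VILIP-1), a small EF-hand protein of the neuronal calcium sensor family. It carries a myristoyl group that calcium binding exposes, so that the protein moves to membranes when calcium rises, and it has been linked to cyclic nucleotide signalling and to the surface level of nicotinic receptors. It is best known from neurons. Arsi encodes arylsulfatase I, a member of the sulfatase family, whose enzymes remove sulfate groups from glycosaminoglycans, sulfolipids and steroids and need an activating modification of a cysteine in their catalytic site. In human cells arylsulfatase I has been described as a secreted sulfatase, and its physiological substrate is not established.

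The sheared group held 3 cultures kept for 24 h at 14 dyn/cm2 in a parallel-plate chamber with laminar flow, and the other group was 3 static cultures. All 6 cultures were passage 3 to 5 smooth muscle cells from rat aorta, grown in 10% fetal calf serum and then held for 24 h in medium with 0.1% albumin; strain, age and number of animals are not given in the sources used here. Each sheared culture shared a pairing number with 1 static culture, and what a pair had in common is not stated, so the spread between samples may be technical. Handling in the chamber and shear itself cannot be told apart, and neither can fewer expressing cells and less RNA per cell.

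The values are MAS5 signals, the linear brightness that Affymetrix software summarises for each probe set. Differences are on the log2(signal + 16) scale, which understates changes of dim genes. Median signals were 17.3 to 18.9 on sheared arrays and 21.1 to 22.6 on static arrays. Pearson correlations across probe sets were 0.980 to 0.993 among sheared arrays, 0.987 to 0.991 among static arrays and 0.882 to 0.906 between them. All 14 smooth muscle markers passed the filter, with a summed signal of 8369 to 8773 in sheared and 12187 to 13526 in static cells; 0 of them rose (limma, also 0 at an unadjusted p below 0.05) and 10 fell (71.4%, against 27.9% risen and 30.2% fallen of all genes tested), among them Mylk (-2.82) and Acta2 (-1.10). After median centring 1 rose, Tagln (0.22). Of 11 endothelial markers 7 lay below the filter, 0 rose (limma, also 0 unadjusted) and 1, Egfl7, fell by 0.40, a call lost without pair 3 (-0.37, adjusted p = 0.126), after quantile normalization (-0.31), after median centring (-0.25) and as a mean over probe sets (-0.25). The summed endothelial signal was 167 to 186 in sheared and 207 to 227 in static cells. Egfl7, the brightest of these markers, had means of 79.4 in sheared and 110.5 in static cells, so the sums mostly follow that gene. Of 11 leukocyte markers 5 lay below the filter, 2 rose and 1 fell, with sums of 167 to 209.8 in sheared and 226 to 272 in static cells. These sums mostly follow the brightest marker, Cd14, which fell (-0.68), with means of 107.9 in sheared and 181.9 in static cells. The 2 that rose, Cd68 (0.70) and Coro1a (0.44), were dim. Without pair 2 or without pair 3, Coro1a was lost and 1 leukocyte marker rose.

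The brighter Vsnl1 probe set (1368854_at) had signals of 23.3, 7.1 and 3.9 in sheared cultures 1 to 3, against 584.7, 305.7 and 288.9 in static cultures 1 to 3. Every sheared value was below every static value, with the lowest static signal 12.4 times the highest sheared one. The array medians were 18.9, 17.8 and 17.3 on the sheared arrays, so sheared cultures 2 and 3 lay below the median of their arrays. No detection calls were used here, and signals this low could not be told from background. The mean was 11.4 ± 10.4 in sheared and 393 ± 166 in static cells (SD, n = 3 each), a nominal 2.91% of the static mean that rests on those low sheared signals. On the log2(signal + 16) scale the difference was -3.89 (SE 0.11, 95% interval -4.15 to -3.64). The interval is a description and no test, since it makes no allowance for Vsnl1 having been picked by this difference.

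On that scale the differences were -3.93, -3.80 and -3.94 in pairs 1 to 3. Their closeness depends on the 16 added to the dim sheared signals: the plain ratios of static over sheared signal were 25.1, 43.1 and 74.1. Sheared culture 1 had the highest of the sheared signals, and static culture 1 had 1.97 times the mean signal of static cultures 2 and 3. The SD of log2(signal + 16) between the 3 sheared arrays was 0.52, and 2.52% of 11248 genes had a larger one. Between the 3 static arrays it was 0.54, and 0.640% of genes had a larger one; the median gene had 0.15 among sheared and 0.11 among static arrays. With the pairing number left out of the fit, the standard error of the Vsnl1 difference was 0.30.

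The second Vsnl1 probe set (1368853_at) had 12.1, 0.6 and 8.3 in sheared cultures 1 to 3, against 238.8, 120.4 and 124.4 in static cultures 1 to 3. The groups again did not overlap, and culture 1 again had the highest signal in both groups. The means were 7.0 ± 5.86 in sheared and 161 ± 67.2 in static cells (SD, n = 3 each), a log2 difference of -2.92 (SE 0.15). In static cultures 1 to 3 the signal of the brighter probe set was 2.45, 2.54 and 2.32 times that of the dimmer one. No such ratio is read from the sheared cultures, where both signals were too low.

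Arsi was read by a single probe set (1378174_at). Its signals were 61.7, 39.1 and 58.8 in sheared cultures 1 to 3, against 1148.1, 884.6 and 968.2 in static cultures 1 to 3. Every sheared value was below every static value, by 14.3 times or more, and all 3 sheared values lay above the median of their array. The mean was 53.2 ± 12.3 in sheared and 1000.3 ± 135 in static cells (SD, n = 3 each), so that 5.32% of the static mean was left. The log2 difference was -3.88 (SE 0.10, 95% interval -4.13 to -3.64), with -3.91, -4.03 and -3.72 in pairs 1 to 3. As for Vsnl1, the interval is a description and no test. Pairs 1 to 3 kept 5.37%, 4.42% and 6.07% of the static Arsi signal. Culture 1 was higher than the mean of cultures 2 and 3 by 1.26 times in the sheared and 1.24 times in the static group, so Arsi varied less between cultures than Vsnl1. Its SD on the log2 scale was 0.27 among sheared and 0.19 among static arrays, exceeded by 17.0% and 21.5% of genes.

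**Figure D1:**
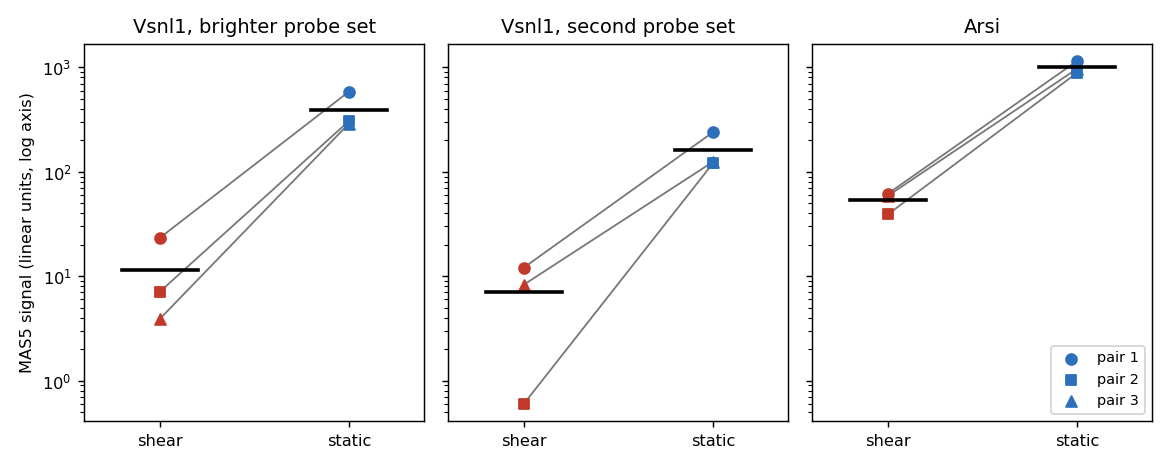
MAS5 signal (linear units on a log axis) of the 2 Vsnl1 probe sets and the Arsi probe set in sheared and static cultures; each symbol is 1 culture, grey lines join a pair and black bars are group means (n = 3). Sheared values run from 0.6 to 61.7 and static values from 120.4 to 1148.1, with no overlap in any panel, and culture 1 is highest in each group of both Vsnl1 panels.

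Across all genes tested, each read by its brightest probe set, all sheared arrays lay below all static arrays for 33.9%, and 30.2% passed as fallen (limma, Benjamini-Hochberg adjusted p below 0.05). Since both genes were chosen on this contrast, nothing is read from their place among these. By the size of the log2 difference Vsnl1 came at rank 5 and Arsi at rank 6 of 11248 genes, between Kif20a (-4.09) and Ect2 (-3.88). The order depended on how dim signals were handled, on the probe sets used and on single pairs. With a pseudocount of 64 Vsnl1 came at rank 27 and Arsi at rank 2, and with a pseudocount of 1 they came at ranks 4 and 21. Without pair 1 Vsnl1 came at rank 14 (-3.87) and Arsi at rank 13 (-3.87), without pair 3 they came at ranks 7 and 4, and as means over probe sets at ranks 18 and 3. With signals under 50 set to 50, Vsnl1 came at rank 48 with a difference of -2.90 and Arsi at rank 2 with -4.13.

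**Figure D2:**
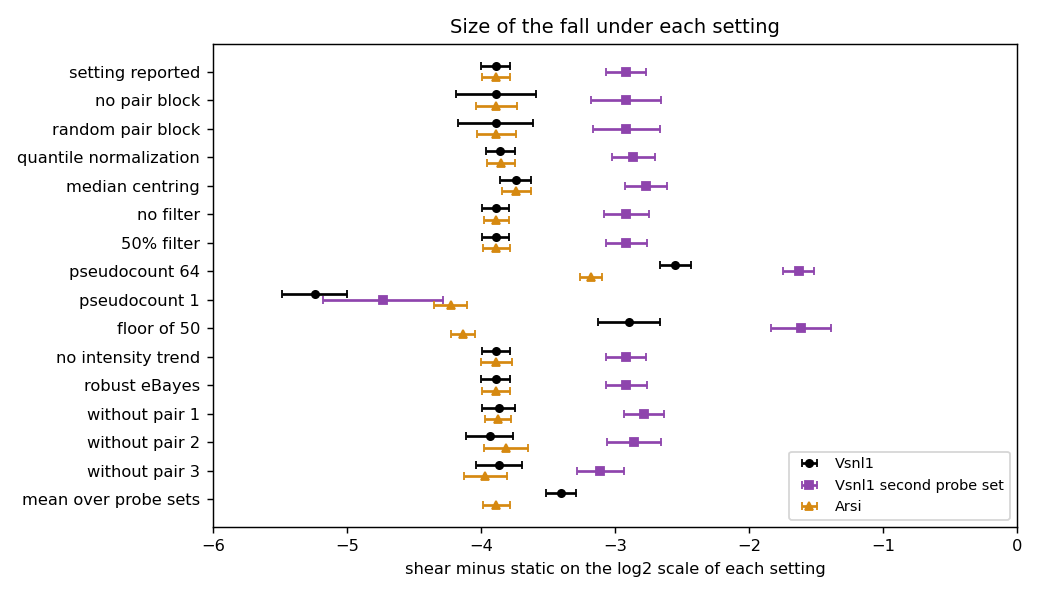
Difference of sheared minus static cells on the log2 scale (points, with standard errors) for both Vsnl1 probe sets and Arsi under the setting reported and 15 others. The mean over both Vsnl1 probe sets is drawn with the symbol of the brighter one, and the second has no point there. All values are below 0; Arsi stays between -4.23 and -3.18, whereas the brighter Vsnl1 probe set runs from -5.24 with a pseudocount of 1 to -2.55 with 64.

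The RefSeq promoter window of Vsnl1 is shown because it is the stretch in which letters of known promoter elements could be looked for in a gene with this loss of signal. It covers 250 bases before and 50 bases after the annotated start, at chr6:39878507-39878806 of GRCr8, minus strand. Capitals mark the matches to the elements searched.
Vsnl1: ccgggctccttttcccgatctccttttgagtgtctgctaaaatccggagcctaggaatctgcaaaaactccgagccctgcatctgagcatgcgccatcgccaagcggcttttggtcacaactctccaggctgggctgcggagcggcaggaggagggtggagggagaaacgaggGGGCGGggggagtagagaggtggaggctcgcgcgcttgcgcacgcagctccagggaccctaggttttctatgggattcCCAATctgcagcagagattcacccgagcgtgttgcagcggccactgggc

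The window held 1 GC box (GGGCGG, bases 174 to 179) and 1 CCAAT, which lies just past the start (bases 252 to 256). Both are common, with a match on either strand in 34.9% and 37.7% of 27457 promoter windows of the same length. No match on either strand was present for the CArG box (in 1.64% of windows), the TEAD element GGAATG (13.9%), the AP-1 element TGANTCA (7.33%), the cyclic AMP response element TGACGTCA (1.91%) or the TATA box TATAAA (14.3%). The E2F element TTTGGCGC (0.521%), the cell cycle homology region TTTGAA (18.1%), the E-box CAGGTG (18.7%) and the antioxidant response element (2.91%) were not matched either. None of the matches overlapped. The Vsnl1 window had 61.3% G and C, against a median of 52.3% over all windows. The promoter reference used here held no entry for Arsi, so the Arsi promoter was not searched.

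The other genes of the Vsnl1 family that were tested differed by -0.60 to 0.56, against -3.89 for Vsnl1. Since Vsnl1 was picked for its fall, nothing is read from that gap. Besides Vsnl1, 12 neuronal calcium sensor genes were on the array and 8 passed the filter, of which 1 rose and 2 fell, against 27.9% risen and 30.2% fallen of all genes tested. Their median difference was -0.20, against -0.05 for all genes. Hpcal1, a relative also known as VILIP-3, fell on both of its probe sets. Its brighter one gave 547.1, 444.3 and 451.4 in sheared cultures, against 681.4, 777.4 and 741.5 in static cultures (-0.60, adjusted p = 0.00236). All sheared values lay below all static values, as they did for 33.9% of all genes tested. The Hpcal1 differences were -0.31, -0.79 and -0.70 in pairs 1 to 3.

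Ncs1, the frequenin calcium sensor, rose on its brightest probe set, with 207.9, 178.9 and 222.0 in sheared cultures against 157.7, 117.9 and 124.0 in static cultures (0.56, adjusted p = 0.00466). Its other 3 probe sets did not pass (-0.17 to 0.30), nor did Ncs1 as a mean over probe sets (0.18) or without pair 3 (0.45, adjusted p = 0.0593), which left 0 risen. Kcnip1, a subunit of A-type potassium channels, fell by 0.52 with dim signals (4.13 ± 3.35 in sheared and 12.7 ± 2.97 in static cells, SD, n = 3 each), a call lost without pair 2 (-0.49, adjusted p = 0.0525). Without pair 2 or without pair 3, 1 sensor gene fell. Ncald, neurocalcin delta, did not pass on its brighter probe set (-0.36, adjusted p = 0.0537), while the other fell by 1.00; as their mean it passed (-0.68). The brighter Ncald probe set passed, with the same difference, with no pair block (adjusted p = 0.0355), a random block (adjusted p = 0.0314), the 50% filter (adjusted p = 0.0495) or no intensity trend (adjusted p = 0.0496). Hippocalcin Hpca (-0.22), Kcnip2 (-0.15), Kcnip3 (-0.17) and the photoreceptor cyclase activator Guca1b (0.10) did not pass. Hpcal4, recoverin Rcvrn, Guca1a and Kcnip4 lay below the filter.

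Of 38 EF-hand calcium-binding genes outside the sensor family on the array, 28 were tested. Of these 5 rose (17.9%, against 27.9% of all genes) and 10 fell (35.7%, against 30.2%), with a median of -0.06. The calmodulin gene Calm2 (-0.66) and sorcin Sri (-1.14) fell, whereas Pdcd6 (1.25) and S100b (1.43) rose. The risen count was 2 without pair 2 and 2 without pair 3. Cyclase and receptor families were listed because VILIP-1 has been linked to cyclic nucleotide signalling and nicotinic receptors, and not every gene listed is a reported partner. They had 4 risen and 4 fallen of 12 tested, or 33.3% each, near the 27.9% and 30.2% of all genes. The soluble guanylyl cyclase subunits Gucy1a1 (-1.50) and Gucy1b1 (-1.10) fell and Gucy1a2 lay below the filter, and the adenylyl cyclases Adcy8 (1.43) and Adcy3 (0.72) rose while Adcy2 fell (-0.72). The natriuretic peptide receptor Npr2 did not pass (-0.17), though it did without pair 1 (-0.37, adjusted p = 0.00536), and the nicotinic subunits Chrna4 and Chrnb2 lay below the filter.

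Vsnl1 is best known from neurons, so neuronal markers were read beside it. Of 20 markers 10 lay below the filter, including Snap25, Rbfox3, Nefl, Nefm, Nefh, Gap43, Gad1, Gad2, Elavl4 and Dcx, and 16 had signals under 50 on every array. None was listed at 0 on all arrays. The summed marker signal was 989.6 to 1530.2 in sheared and 1051.5 to 1170.3 in static cells, ranges that overlap. Of 10 tested, 5 fell (50.0%, against 30.2% of all genes) and 2 rose (20.0%, against 27.9%), with Uchl1 (1.56) and Tubb3 (1.01) risen and Stmn2 (-0.72), Map2 (-0.94) and Ncam1 (-0.99) fallen. A second Tubb3 probe set did not pass (-0.016). The fallen count was 3 without pair 3, with the 50% filter or as means over probe sets, and 2 with signals under 50 set to 50.

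Beside Arsi (-3.88), which was picked for its fall, the other sulfatases differed by -1.87 to 0.64, and nothing is read from that gap. Besides Arsi, 9 sulfatase genes were on the array and all 9 were tested. Of these 5 fell (55.6%) and 2 rose, against 30.2% fallen and 27.9% risen of all genes, and their median was -0.53 against -0.05. Sulf1 and Sulf2, extracellular enzymes that trim 6-O-sulfate from heparan sulfate, had the largest falls. Sulf1 gave 55.3, 55.7 and 63.8 in sheared cultures, against 272.1, 231.7 and 265.8 in static cultures (-1.87, adjusted p = 9.76e-06). Sulf2 gave 129.4, 124.2 and 117.9 in sheared cultures, against 265.9, 333.6 and 319.0 in static cultures (-1.20, adjusted p = 9.66e-05). All sheared arrays lay below all static arrays for both genes, as they did for 33.9% of all genes tested. The second Sulf1 probe set lay below the filter.

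Among the lysosomal sulfatases, iduronate sulfatase Ids fell by 0.71 (909 ± 93.3 in sheared and 1495 ± 58.9 in static cells, SD, n = 3 each). Arsa, which acts on sulfatide, fell by 0.53 and Arsk by 0.60, each also on a second probe set (-0.34 and -0.43). Arsb, which acts on dermatan sulfate, did not pass (-0.01), nor did Arsg (0.01). The steroid sulfatase Sts rose by 0.64 and Arsl by 0.43. Sts did not pass without pair 3 (0.49, adjusted p = 0.0534), and Arsl did not pass without pair 2 (0.45, adjusted p = 0.080), with no pair block (adjusted p = 0.0592) or with a random one (adjusted p = 0.0501), so that each of these settings left 1 risen sulfatase.

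**Figure D3:**
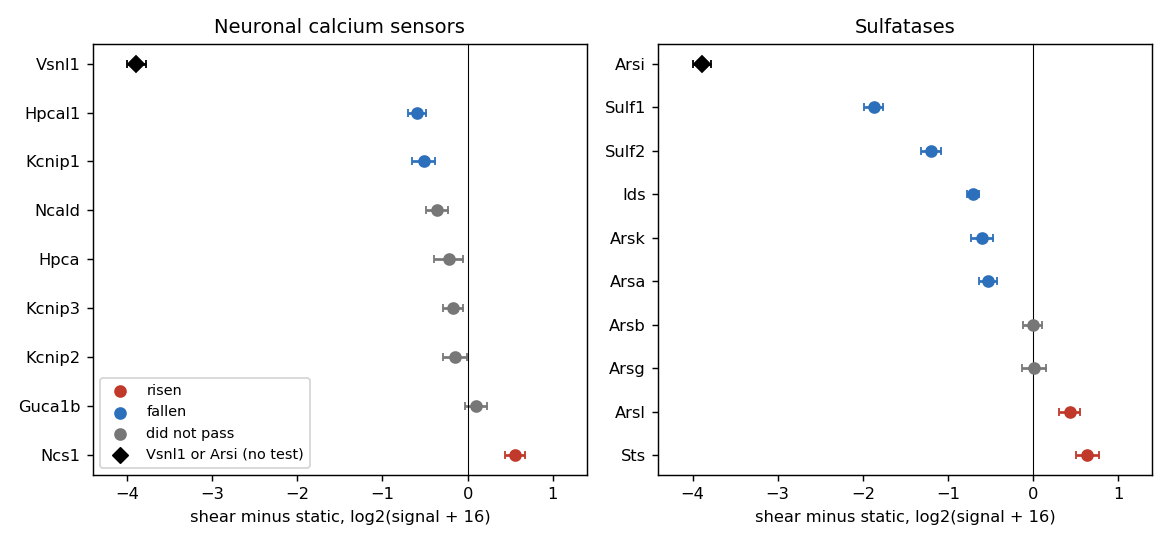
Difference of sheared minus static cells on the log2(signal + 16) scale, with standard errors, for the neuronal calcium sensor genes and the sulfatase genes that passed the filter (n = 3 pairs). Vsnl1 (-3.89) and Arsi (-3.88) are drawn as black diamonds without a test. Both were picked for their fall, so nothing is read from their place below the others, of which Sulf1 is the lowest at -1.87.

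The proteins that mature sulfatases and the other enzymes of sulfate metabolism were read from the same fit. Their called shares are to be set against 27.9% risen and 30.2% fallen of all genes. Of 6 maturation genes 3 fell (50.0%) and 1 rose (16.7%). Erp44 fell by 0.35, a call lost after median centring (-0.20) and as a mean over probe sets (-0.20). That call was also lost without pair 2 (-0.37) or pair 3 (-0.31), and the other 2 tested Erp44 probe sets did not pass. Sumf2, a paralogue of the formylglycine-generating enzyme, fell by 1.00 and the cargo receptor Lman1 by 0.66, while Sumf1, the enzyme that activates sulfatases, rose by 0.41, a call lost without pair 2 (0.39, adjusted p = 0.093) or pair 3 (0.41, adjusted p = 0.0782), which left 0 risen. Lysosomal hydrolases and related enzymes, not all of which act on glycosaminoglycans, had 4 risen (36.4%) and 3 fallen (27.3%) of 11. Neuraminidase Neu1 (1.43) and Naglu (1.09) rose. The hyaluronan-degrading factor Cemip (-2.28) and the acetyltransferase Hgsnat (-1.16) fell, though another Hgsnat probe set did not pass (-0.33). Among genes for sulfate uptake and synthesis of the sulfate donor PAPS, 2 rose (25.0%) and 3 fell (37.5%) of 8 tested. Papss1, a PAPS synthase, fell by 1.70 and Bpnt2 rose by 0.34. The risen count was 1 without pair 1 and 0 without pair 2 or pair 3.

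Of 9 heparan sulfate sulfotransferases and related enzymes tested, 2 fell (22.2%, against 30.2% of all genes), Hs2st1 (-0.99) and Hs6st2 (-1.28), and 0 rose in limma, with 1 risen at an unadjusted p below 0.05. Chondroitin, keratan and other sulfotransferases and related enzymes had 2 risen (16.7%, against 27.9% of all genes) and 4 fallen (33.3%) of 12 tested. The 2 risen were Chst1 and Dsel (1.22), a dermatan sulfate epimerase gene. Chst1, a keratan sulfate sulfotransferase, gave 578.3, 472.5 and 445.4 in sheared cultures, against 24.5, 14.2 and 22.2 in static cultures (3.83). The tyrosylprotein sulfotransferase Tpst1 fell by 2.10.

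Genes beside Vsnl1 and Arsi on the chromosome were read next, taking the 5 protein-coding genes on each side in GRCr8. Beside Vsnl1, 5 of 10 were on the array and 4 were tested. Smc6, the nearest on 1 side and a subunit of a DNA repair complex, gave 183.9, 142.7 and 135.1 in sheared cultures against 274.4, 249.5 and 259.2 in static cultures and fell by 0.72. Rdh14, a retinol dehydrogenase, rose by 0.80 (169 ± 25.5 in sheared and 90.3 ± 14.4 in static cells, SD, n = 3 each). Cyria (-0.33) and the potassium channel subunit Kcns3 (0.18) did not pass, and Kcns3 passed without pair 1 (0.48, adjusted p = 0.0172), which made 2 risen.

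Beside Arsi, 9 of 10 neighbours were on the array and 8 were tested, of which 3 fell (37.5%, against 30.2% of all genes) and 0 rose in limma, also 0 at an unadjusted p below 0.05. Pdgfrb, the receptor for platelet-derived growth factor B, gave 57.0, 26.1 and 23.4 in sheared cultures against 308.2, 464.2 and 401.3 in static cultures, a difference of -3.02 (adjusted p = 4.31e-05). Its other 2 tested probe sets also fell, by 1.91 and by 1.82. Synpo, the actin-binding protein synaptopodin, fell by 1.21 on its brightest probe set and also on 2 others. The nucleolar protein gene Tcof1, next to Arsi on 1 side, fell by 0.68. Of its 2 other tested probe sets (-0.52 and -0.25), only 1 also fell. Camk2a, next to Arsi on the other side, did not pass (-0.16), nor did Slc6a7 (-0.40), Cdx1 (-0.08), Ndst1 (-0.18) or Csf1r (-0.16). Slc6a7, with dim signals, passed without pair 1 (-0.58, adjusted p = 0.0130), which made 4 fallen. The genes adjoining Arsi thus differed among themselves, with 2 of the 3 that fell with all pairs at 4 and 5 places from it.

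**Figure D4:**
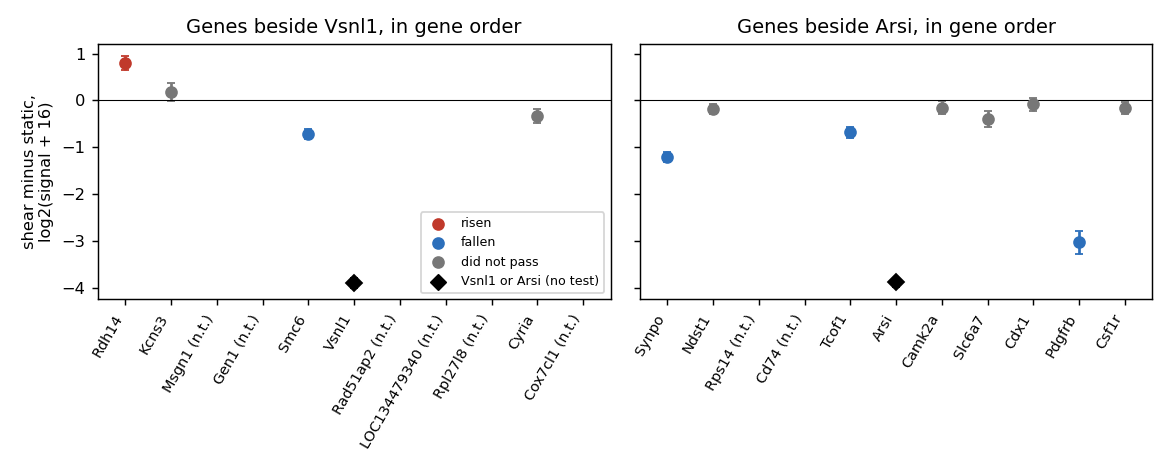
Difference of sheared minus static cells on the log2(signal + 16) scale, with standard errors, for the 5 protein-coding genes on each side of Vsnl1 and of Arsi in gene order (not to distance; n.t. marks genes that were not on the array or lay below the filter). Of the 12 neighbours tested, Pdgfrb (-3.02) is the only one below -2, and Rdh14 (0.80) is the only one that rose.

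Genes with a profile like that of Vsnl1 or Arsi were found by Euclidean distance between mean-centred log2(signal + 16) values over the 6 arrays. This measure takes in the shear difference by which both genes were chosen, so it is a description. The profile nearest to Vsnl1 was that of Fos, a subunit of the AP-1 transcription factor, at a distance of 0.226 (Pearson r 0.999 over 6 arrays, which fall into 2 clusters). Fos gave 92.8, 38.8 and 35.3 in sheared cultures, against 1437.5, 725.7 and 696.0 in static cultures, so that it too was highest in culture 1 of each group. A second Fos probe set with low signals did not follow (-0.06). The other 9 lay between 0.730 and 0.923 and were Pclaf, Cdca3, Pbk, Ect2, Knstrn, Arsi, Ccnb2, Kif20a and Racgap1. In each of these 9 sheared culture 1 had the highest sheared signal.

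Arsi lay nearest to Filip1l (distance 0.511), Edn1 (0.539), Cebpd (0.569), the decoy receptor gene Tnfrsf11b (0.585) and Rassf4 (0.604). Edn1 encodes the vasoconstrictor endothelin 1, and its signals were 10.3, 8.3 and 14.0 in sheared cultures against 414.4, 256.5 and 264.3 in static cultures. Tnfrsf11b, which encodes osteoprotegerin, gave 49.2, 56.6 and 72.0 in sheared cultures against 987.3, 1032.9 and 1033.9 in static cultures. The next 5 were Pclaf, Ankrd1, Tk1, Ccnb2 and Cdca3, up to a distance of 0.729. Vsnl1 and Arsi were 0.862 apart, which made Arsi the 7th nearest to Vsnl1 and Vsnl1 the 18th nearest to Arsi of 11247 genes. They shared 3 of their 10 nearest genes. The median gene lay 4.82 from Vsnl1 and 4.73 from Arsi. The lists depended on the measure: by Pearson correlation 1 of 10 was kept for each gene, and with a pseudocount of 64, 0 of 10 for Vsnl1 and 6 of 10 for Arsi.

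**Figure D5:**
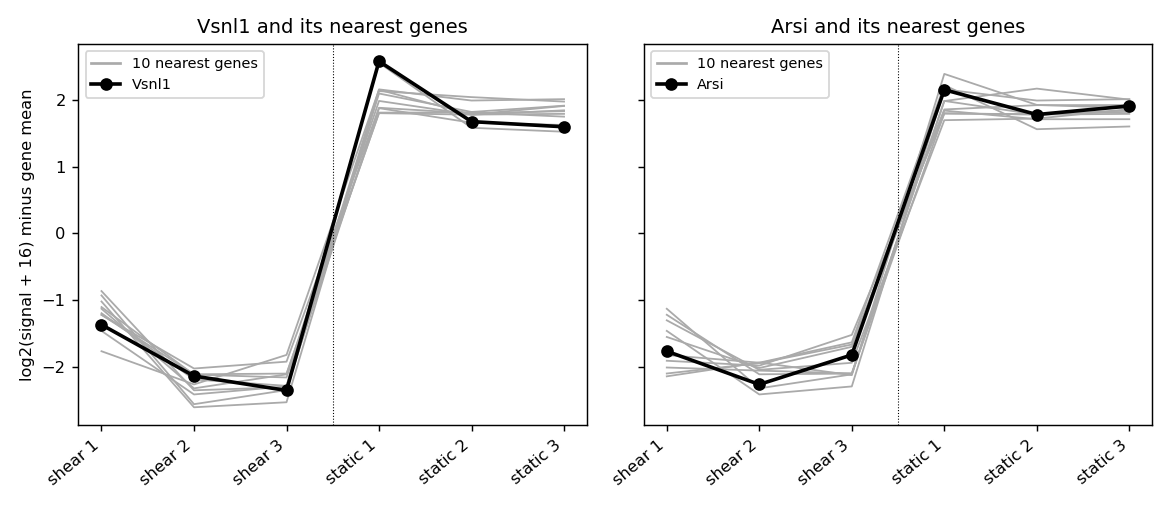
Mean-centred log2(signal + 16) of Vsnl1 and of Arsi (black) and of the 10 genes nearest to each (grey) on the 3 sheared and 3 static arrays; lines only join the values of 1 gene. All genes shown are low on sheared and high on static arrays, and Vsnl1 stands above most of its nearest genes on static array 1.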

How the data were processed

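Per the submitters' processing notes, MAS5 produced the deposited intensity values (version not given in the sources used here), 1 linear signal per probe set for each of 6 arrays. The mean without the highest and lowest 2% was equal on all arrays, so no further scaling was applied. The number of arrays limits the precision.

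Of 31042 non-control probe sets, 20826 had 1 gene symbol; 20758 of these matched the GRCr8 gene table, with 0 symbols changed. The brightest probe set stood for a gene. Signals were taken as log2(signal + 16), the dimmest 30% of probe sets by mean left out (limit 4.50), and 21729 fitted in limma 3.58.1 (R 4.3.3; lmFit, eBayes with trend) with pairs as a fixed block, since the series design calls the experiment paired. P-values are two-sided, Benjamini-Hochberg adjusted over those 21729, and called below 0.05. Deviations from group means correlated weakly, by 0.071, 0.065 and 0.063 within pairs 1 to 3. Values with other pairs were lower, but deviations within a group cancel out, which by itself lowers those values. The comparison therefore does not show what a pair shared. The fit was tested on simulated data. Figures used matplotlib 3.10.9.

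The genes, lists and tests were chosen with earlier results of these data known. The lists were neuronal calcium sensors, other EF-hand proteins, cyclase and receptor families, sulfatases, sulfatase maturation, and lysosomal hydrolases and related enzymes. Further lists were sulfate and PAPS, heparan and other sulfotransferases with related enzymes, and 4 cell type marker lists. The rule for named genes took Vsnl1, Arsi, both families, up to 6 genes of other lists by smallest p, 10 nearest profiles and 5 neighbours on each side. The nicotinic subunits, Npr2, Bpnt2, and the markers below the filter or lost in a left-out pair were named outside it. Promoter windows are RefSeq's (GRCr8).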

Additional observations from a re-analysis of the deposited data

How the results depend on the processing

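Vsnl1 and Arsi were lower in sheared cells under all 15 alternatives, by amounts that depended on the handling of dim signals. The brighter Vsnl1 probe set differed by -2.55 with a pseudocount of 64, -5.24 with 1 and -2.90 with signals under 50 set to 50. Under these 3 settings the second gave -1.63, -4.73 and -1.61, and Arsi -3.18, -4.23 and -4.13. The brighter Vsnl1 probe set gave -3.74 after median centring. As a mean over both probe sets, Vsnl1 differed by -3.40. Leaving out a pair gave -3.94 to -3.87 and -3.11 to -2.78 for the 2 Vsnl1 probe sets and -3.97 to -3.81 for Arsi. With no replicate block the differences were equal, 5232 probe sets rose and 6198 fell (5283 and 6188 with it). Risen probe sets made up 46.1% of calls, 52.4% after quantile normalization and 59.1% after median centring, which moved the median of all probe sets from -0.067 to 0.021 and 0.082. Leaving out a pair gave 3855 to 5831 risen and 4534 to 7193 fallen.

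Counts in lists moved by over 1.5 times as follows. Among markers, neuronal ones had 3 fallen with the 50% filter or as means over probe sets and 2 with the floor of 50; endothelial ones had 0 fallen under both scalings and as means; leukocyte ones had 0 risen with the 50% filter and the floor; and 1 smooth muscle marker rose after median centring. Neuronal calcium sensors had 0 risen as means over probe sets, 1 fallen with the floor of 50, and 0 to 1 risen and 1 to 2 fallen with a pair left out. Sulfatases had 1 risen without the pair block, with a random block and with the floor, and 1 to 2 with a pair left out. Other EF-hand genes had 11 risen after median centring, 3 without the intensity trend and 2 to 6 with a pair left out. The cyclase and receptor families had 2 risen and 2 fallen with the 50% filter and with the floor. Maturation genes had 2 risen after median centring and 0 to 1 with a pair left out. Sulfate and PAPS genes had 1 risen without the filter, with a pseudocount of 1, with the floor and without trend, and 0 to 1 with a pair left out. Heparan sulfotransferases had 1 risen without the block, with a random block, with the 50% filter and as means over probe sets, and 2 after quantile normalization or median centring. Neighbours of Vsnl1 had 1 to 2 risen with a pair left out. Of 146 list and neighbour genes followed, 99 kept their side of the threshold in every alternative. S100a10 (-0.13) and S100a11 (-0.027) turned sign after quantile normalization. The cause of these changes was not tested. Fits with a pair left out had 1 residual degree of freedom.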
